A study of Homo sapiens with 16 samples.

Results

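The histone deacetylases outside the CoREST complex, HDAC3 to HDAC11, were followed as mRNA in BRAF inhibitor–resistant melanoma cells treated with corin. Members were taken by gene symbol, and all 9 were present among the 34228 genes of the count table. Corin is a bivalent compound designed to block the deacetylase (HDAC1 and HDAC2) and demethylase (LSD1) activities of CoREST, and the study treated resistant cells with it to ask how CoREST supports phenotype switching and drug resistance. The cell lines 451Lu-R and 1205Lu-R are melanoma lines made resistant by growth in rising doses of the BRAF inhibitor PLX4032 over months and then kept in PLX4032. Whether PLX4032 was still present during the DMSO or corin treatment is not stated in the sources used here. Each group consisted of 2 libraries of poly(A) RNA from cells given DMSO (the solvent control) or 2.5 µM corin for 24 h, so that 8 libraries from 2 lines were compared. Neither the labels nor the methods state whether the 2 libraries of a group came from separate cultures, and p-values therefore measure only the spread between these libraries. Resistance itself was shared by all 4 groups, and each resistant background was represented by 1 line. Of the 16 samples in the series, those given PLX4032 were not analysed here.

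The zinc-dependent deacetylases remove acetyl groups from lysine and fall into classes by sequence. HDAC3 and HDAC8 belong to class I, with HDAC1 and HDAC2. HDAC3 is the catalytic subunit of the NCoR corepressor complex, and HDAC8 deacetylates the cohesin subunit SMC3. HDAC4, HDAC5, HDAC7 and HDAC9 form class IIa, which has little catalytic activity of its own, binds MEF2 transcription factors as a repressor and leaves the nucleus when kinases phosphorylate it and 14-3-3 proteins hold it. HDAC6 and HDAC10 form class IIb, of which HDAC6 deacetylates tubulin and HDAC10 acts on polyamines. HDAC11 is the only member of class IV and removes fatty acyl groups.

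The library totals lay between 9516687 and 11797788 estimated counts. Replicate libraries differed by a little more than counting noise, with a chi-square per degree of freedom of 1.34 to 1.41. The melanocyte lineage list (6 of 6 markers at 1 CPM or more) summed to 11732 to 12916 CPM in the 451Lu-R libraries and to 7.56 to 18.0 CPM in the 1205Lu-R libraries, in which 2 of the 6 were at 0. The list of undifferentiated melanoma genes ran the other way, at 6.53 to 24.8 CPM in 451Lu-R and 578 to 1313 CPM in 1205Lu-R. CPM are estimated counts scaled to a common library size. Summed lists of markers of other cell types were each highest with corin. The keratinocyte list reached 5.07 CPM, the lymphoid and myeloid list 1.66 CPM and the epithelial list 1.22 CPM. In 1205Lu-R the endothelial list stood at 11.1 to 11.3 CPM with DMSO and at 22.9 to 26.5 CPM with corin. This rise lay in VWF, from 1.70 and 1.08 CPM to 18.2 and 17.1 CPM. PECAM1 was lower with corin (9.43 and 10.2 CPM against 8.26 and 5.77 CPM), and CDH5 was at 0.086 CPM or less. The summed endothelial values with corin lay above the melanocyte lineage list in the same libraries (15.9 to 18.0 CPM). The part of these markers in the results was not tested.

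Promoter windows are shown for the members with the largest rise and the largest fall across both lines, HDAC9 and HDAC7. RefSeq windows of 300 bases (250 before to 50 after a transcript start, GRCh38.p14) were held for 8 of the 9 members, all except HDAC5, 18 windows in all. Several windows at different starts were held for HDAC9, and counts summed to genes do not show which start was used. The HDAC9 window printed here lies on the plus strand at chr7:18086575-18086874. The capitals mark a match to the MEF2 consensus that begins 8 bases before the start. The HDAC7 window lies on the minus strand at chr12:47819854-47820153 and is printed without capitals because it holds no match to any of the 5 motifs searched.
HDAC9: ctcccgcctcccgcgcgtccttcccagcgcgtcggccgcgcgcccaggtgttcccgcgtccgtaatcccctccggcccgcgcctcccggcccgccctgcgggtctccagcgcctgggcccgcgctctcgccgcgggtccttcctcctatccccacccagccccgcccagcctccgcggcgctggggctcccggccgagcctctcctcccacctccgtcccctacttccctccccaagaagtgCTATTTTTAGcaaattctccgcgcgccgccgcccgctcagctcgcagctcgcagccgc
HDAC7: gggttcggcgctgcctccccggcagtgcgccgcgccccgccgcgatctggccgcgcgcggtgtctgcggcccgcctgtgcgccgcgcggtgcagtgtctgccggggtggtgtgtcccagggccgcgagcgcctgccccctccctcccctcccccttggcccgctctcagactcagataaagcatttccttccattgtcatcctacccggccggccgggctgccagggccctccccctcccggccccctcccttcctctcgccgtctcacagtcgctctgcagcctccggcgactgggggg
The MEF2 consensus, searched on both strands, occurred in 2.99% of the 35116 windows of the table, and this HDAC9 window was the only window among the 18 that held it. The match read CTATTTTTAG. The same window held 3 GC boxes (GGGCGG), which occurred in 45.0% of all windows. The other motifs were CCAAT in 34.6%, the AP-1 site TGANTCA in 7.71% and the E-box CACGTG in 7.26% of all windows. HDAC4 had an E-box 13 bases before the start of its window at chr2:239401600-239401899, and an AP-1 match stood in overlapping HDAC9 windows that begin at base 18495460 and base 18495499. Both printed windows are rich in G and C, at 75% for HDAC9 and 74.7% for HDAC7. A match is a description of letters, and no binding was measured.

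With corin, the 9 genes moved in different directions (plot of levels by library). In 451Lu-R cells 4 genes rose (HDAC3, HDAC4, HDAC5 and HDAC9), 3 fell (HDAC6, HDAC7 and HDAC10) and 2 did not pass the test at an adjusted p under 0.05, in a comparison in which 41.3% of all 14530 genes tested rose and 38.6% fell. In 1205Lu-R cells 4 genes rose (HDAC3, HDAC5, HDAC6 and HDAC9), HDAC7 alone fell and 4 did not pass, where 40.4% of 14563 genes rose and 37.8% fell. At 2-fold or more, HDAC5 and HDAC9 rose and HDAC7 fell in both lines, against 22.2% of genes higher and 13.3% lower in 451Lu-R and 22.0% higher and 9.80% lower in 1205Lu-R. The share of members that rose in each line was thus near that of all genes. The median log2 fold change of the 9 members was 0.27 in each line, and that of all genes was 0.03. In each line the median of the members was the value of HDAC11, which did not pass the test. All 9 members passed the filter on low counts in every comparison, HDAC9 in 451Lu-R through its corin libraries, since only 1 of its DMSO libraries reached the cutoff of 0.957 CPM. Without HDAC9, 3 of 8 members rose there and 3 fell. Of the 12273 genes at the cutoff in both libraries of both groups, 36.6% rose and 42.9% fell. In bulk RNA, fewer cells expressing a gene and less RNA per cell cannot be told apart.

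**Figure D1:**
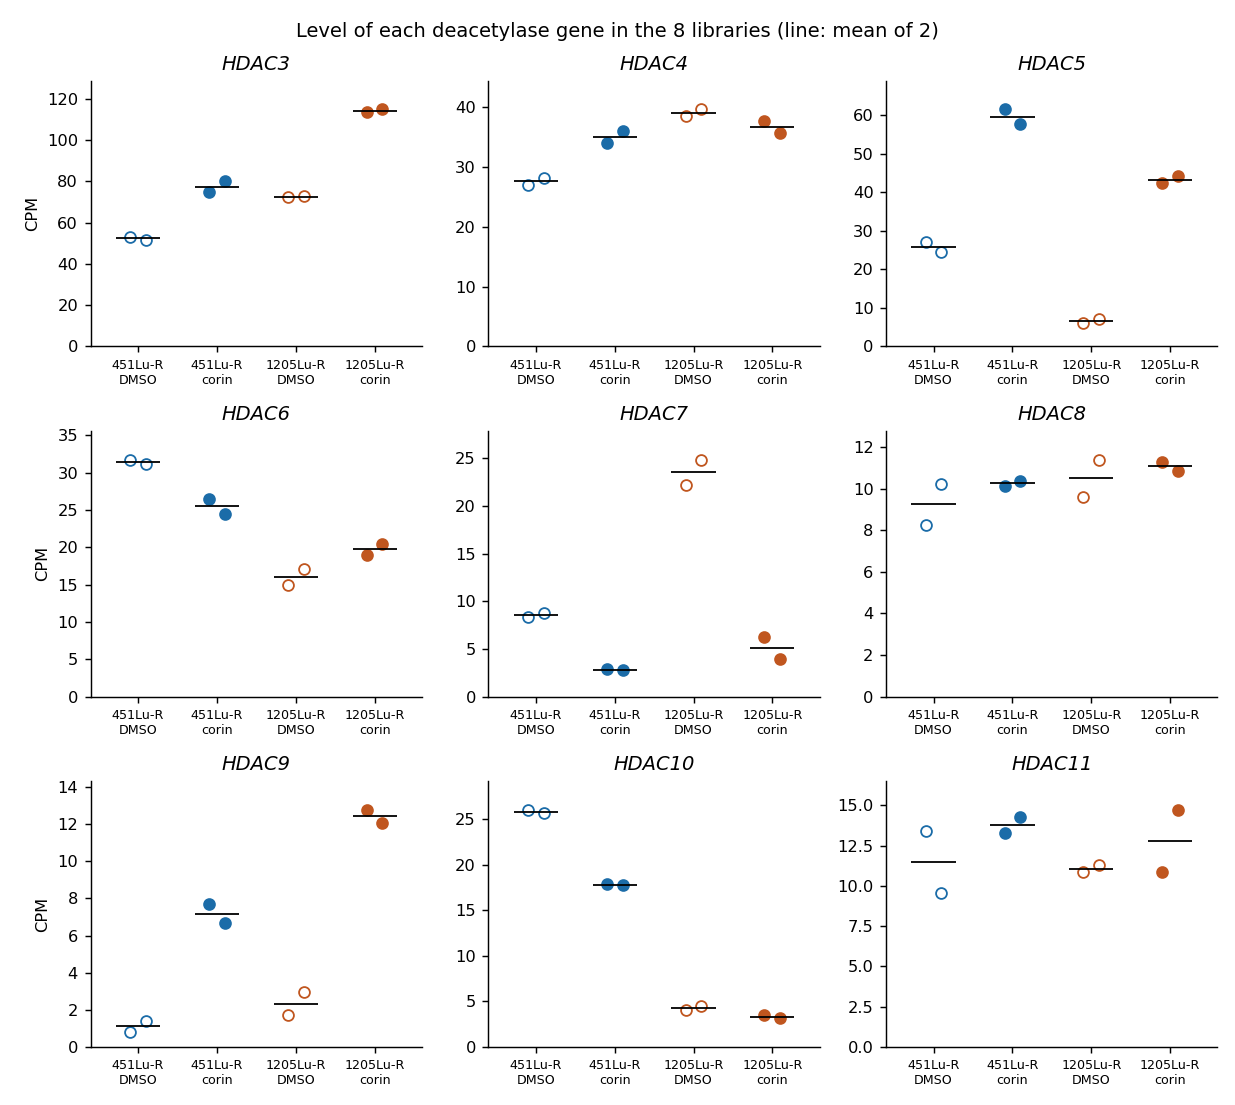
Level of each deacetylase gene in normalised counts (CPM, y axis from 0) in the 8 libraries. Open points are DMSO and filled points corin, blue for 451Lu-R and orange for 1205Lu-R, with a line at the mean of 2 libraries. HDAC5 and HDAC9 stood higher and HDAC7 lower in every corin library than in the DMSO libraries of the same line.

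**Figure D2:**
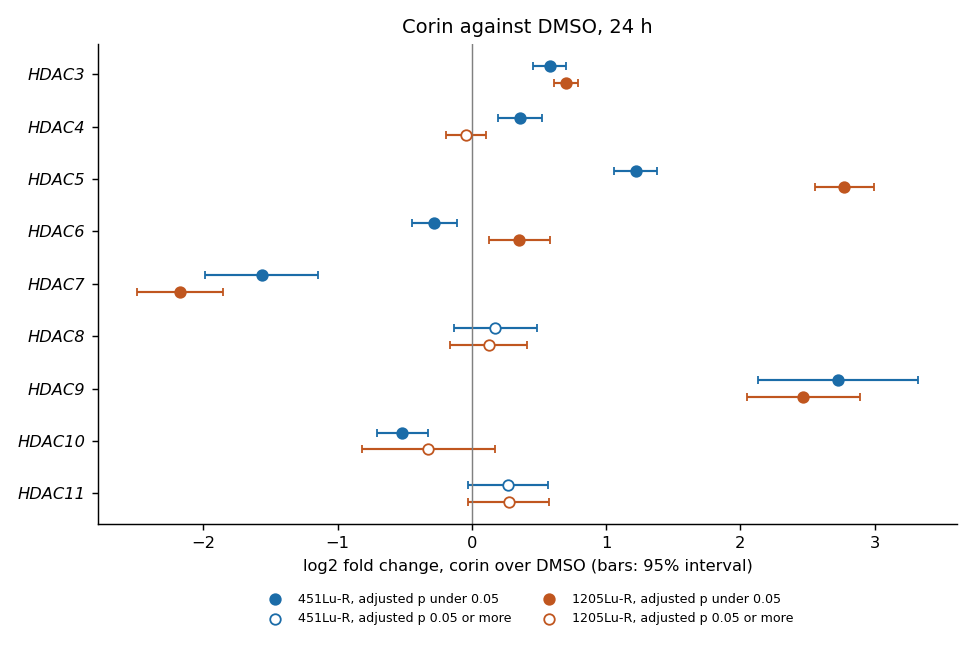
Log2 fold change of each gene with corin over DMSO (x axis), with the 95% interval as a bar, for 451Lu-R (blue) and 1205Lu-R (orange). Filled points had an adjusted p under 0.05, and HDAC6 lies below 0 in 451Lu-R at -0.28 and above 0 in 1205Lu-R at 0.35.

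Of the class IIa genes, HDAC5 rose in both lines and rose more in 1205Lu-R cells. HDAC5 (ENSG00000108840, hg38 chromosome 17, bases 44076746 to 44123702, minus strand) stood at 27.2 and 24.6 CPM with DMSO and at 61.5 and 57.7 CPM with corin in 451Lu-R, and at 6.03 and 7.07 CPM with DMSO and 42.5 and 44.1 CPM with corin in 1205Lu-R. The lowest corin library of each line was thus above its highest DMSO library, and the lines, far apart with DMSO, came closer with corin. The rise was 2.33-fold in 451Lu-R (log2 fold change 1.22, SE 0.075, edgeR adjusted p = 1.0e-11) and 6.85-fold in 1205Lu-R (2.78, SE 0.11, edgeR adjusted p = 3.97e-16). The difference between these responses was itself past the threshold, at 1.52 on the log2 scale (95% interval 1.23 to 1.80, edgeR adjusted p = 5.36e-09). Exons of HDAC5 share 1826 bases (24.0% of its exon bases) with G6PC3 on the opposite strand, and G6PC3 moved by -0.13 and 0.03 with corin.

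HDAC9 was the lowest of the class with DMSO and rose in both lines. HDAC9 (ENSG00000048052, chromosome 7, bases 18086949 to 19002416, plus strand) was covered in 451Lu-R by 9.07 and 14 estimated counts in the DMSO libraries against 88.1 and 65.1 in the corin libraries, and in 1205Lu-R by 18.0 and 29.9 against 127 and 140. In CPM these were 0.805 and 1.41 against 7.70 and 6.67, and 1.70 and 2.95 against 12.8 and 12.1, with no overlap of the groups within a line. The rise was 6.64-fold in 451Lu-R (log2 fold change 2.73, SE 0.28, edgeR adjusted p = 3.33e-08) and 5.54-fold in 1205Lu-R (2.47, SE 0.20, edgeR adjusted p = 2.64e-10). The responses did not differ past the threshold (-0.30, 95% interval -1.15 to 0.55, edgeR adjusted p = 0.584). That interval leaves room for a difference of more than 2-fold. In 451Lu-R the gene was tested because of its corin libraries, so the count of members that rose there is also given without it.

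HDAC7 fell in both lines. HDAC7 (ENSG00000061273, chromosome 12, bases 47782722 to 47833132, minus strand) stood at 8.32 and 8.74 CPM with DMSO and 2.89 and 2.77 CPM with corin in 451Lu-R. Its DMSO level was higher in 1205Lu-R, where it stood at 22.2 and 24.9 CPM with DMSO and at 6.24 and 3.96 CPM with corin. All 4 corin libraries lay below all 4 DMSO libraries. The fall was 2.96-fold in 451Lu-R (log2 fold change -1.57, SE 0.20, edgeR adjusted p = 5.73e-07) and 4.51-fold in 1205Lu-R (-2.17, SE 0.15, edgeR adjusted p = 2.26e-11). The difference of -0.64 between the lines missed the threshold (edgeR adjusted p = 0.0684), and it was -0.96 without corin replicate 1 of 1205Lu-R (edgeR adjusted p = 0.00818, range over the alternatives 0.00818 to 0.408). HDAC7 shares 963 exon bases (9.7%) with the noncoding gene ENSG00000268069, which had at most 2 counts in a library, and 30 exon bases with SLC48A1, which rose by 2.69 and 1.66 on the log2 scale. Both lie on the opposite strand.

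HDAC4, the remaining class IIa gene, rose in 451Lu-R and did not pass the test in 1205Lu-R. HDAC4 (ENSG00000068024, chromosome 2, bases 239048168 to 239401654, minus strand) stood at 27.0 and 28.1 CPM with DMSO and 33.9 and 36.0 CPM with corin in 451Lu-R, a 1.28-fold rise (log2 fold change 0.36, SE 0.078, edgeR adjusted p = 0.000327). In 1205Lu-R it stood at 38.5 and 39.6 CPM with DMSO and 37.7 and 35.6 CPM with corin, a change of -0.04 (95% interval -0.19 to 0.10, edgeR adjusted p = 0.582). The groups did not overlap in either line, but the 4 libraries of 1205Lu-R all lay between 35.6 and 39.6 CPM. The responses differed by -0.44 (SE 0.10, edgeR adjusted p = 0.00107). With scaling by library size alone this difference was -0.23 (edgeR adjusted p = 0.066, range over the alternatives 0.000941 to 0.066), a scaling that moved the median of all genes in this comparison by 0.21.

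The make-up of class IIa mRNA therefore shifted toward HDAC5 and HDAC9 and away from HDAC7 and HDAC4. As a share of the class per kilobase of exon, HDAC5 went from 13.6% and 14.5% of the 1205Lu-R DMSO libraries to 58.1% and 61.6% of the corin libraries, and HDAC7 from 38.2% and 39.1% to 6.55% and 4.25%. In 451Lu-R, where HDAC5 led the class already, its share went from 56.1% and 52.3% to 72.1% and 70.3%, and that of HDAC7 from 13.2% and 14.3% to 2.60% and 2.59%. The HDAC9 share in 451Lu-R went from 0.732% and 1.32% to 3.98% and 3.58%. In 1205Lu-R the HDAC9 share went from 1.68% and 2.67% to 7.70% and 7.43%. The HDAC4 share was lower in every corin library, at 27.7% and 26.7% against 46.5% and 43.7% with DMSO in 1205Lu-R and at 21.4% and 23.5% against 30.0% and 32.1% in 451Lu-R. The summed class level per kilobase in 451Lu-R was 6.36 and 6.18 in the DMSO libraries against 11.2 and 10.8 in the corin libraries, and in 1205Lu-R it was 5.83 and 6.39 against 9.60 and 9.40. With the length of the canonical transcript in place of all exons, HDAC7 led the class in the 1205Lu-R DMSO libraries (47.3% and 48.3%), and HDAC5 led in all 4 corin libraries (52.5% to 67.9%).

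**Figure D3:**
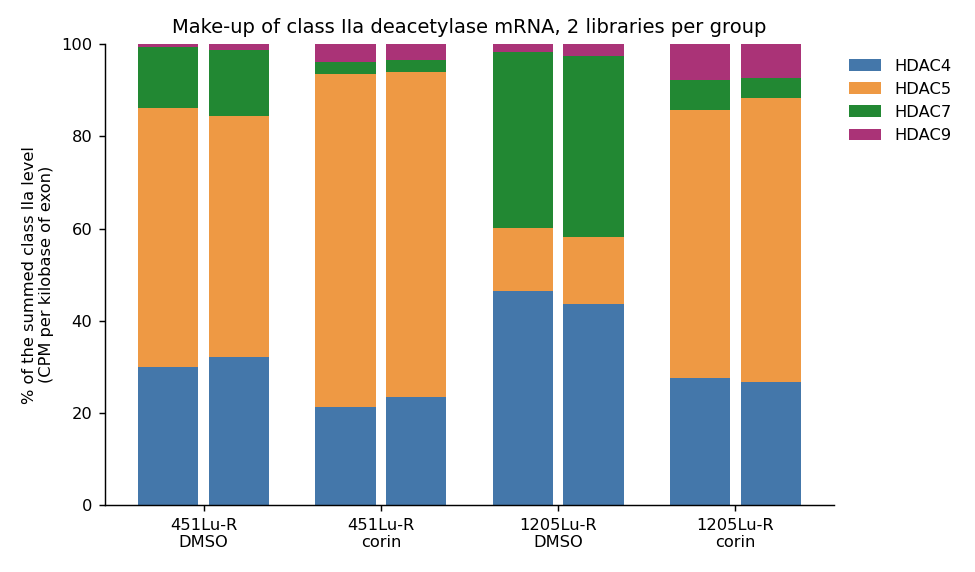
Share of each class IIa gene in the summed class IIa level (CPM per kilobase of exon, y axis in percent) in each library, in pairs of replicate libraries. In 1205Lu-R the HDAC7 part (green) shrank from 38.2% and 39.1% to 6.55% and 4.25%, and the HDAC5 part (orange) grew.

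HDAC3, of class I, was the most abundant of the 9 per kilobase and rose in both lines. HDAC3 (ENSG00000171720, chromosome 5, bases 141620876 to 141636849, minus strand) stood at 53.0 and 51.8 CPM with DMSO and 74.9 and 80.1 CPM with corin in 451Lu-R, and at 72.3 and 73.0 CPM with DMSO and 113 and 115 CPM with corin in 1205Lu-R. The groups did not overlap in either line. The rise was 1.49-fold in 451Lu-R (log2 fold change 0.58, SE 0.059, edgeR adjusted p = 2.20e-08) and 1.63-fold in 1205Lu-R (0.70, SE 0.044, edgeR adjusted p = 2.20e-12). The responses differed by 0.09 (95% interval -0.06 to 0.23, edgeR adjusted p = 0.327). With scaling by library size alone the difference was 0.30 and passed (edgeR adjusted p = 0.00114, range over the alternatives 0.00114 to 0.643). For comparison, the CoREST deacetylase HDAC1 rose by 0.53 in 451Lu-R and moved by -0.09 in 1205Lu-R (edgeR adjusted p = 0.0572), and HDAC2 rose by 0.35 and 0.34. HDAC1 was the gene of this pair whose responses differed between the lines, by -0.67 (edgeR adjusted p = 7.45e-09).

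HDAC8, the other class I gene, did not pass the test in any comparison. HDAC8 (ENSG00000147099, chromosome X, bases 72329516 to 72573101, minus strand) stood at 8.23 and 10.2 CPM with DMSO and 10.1 and 10.4 CPM with corin in 451Lu-R, and at 9.62 and 11.4 CPM with DMSO and 11.3 and 10.9 CPM with corin in 1205Lu-R. The DMSO and corin groups overlapped in both lines. The log2 fold change with corin was 0.18 in 451Lu-R (95% interval -0.14 to 0.49, edgeR adjusted p = 0.284) and 0.13 in 1205Lu-R (-0.16 to 0.41, edgeR adjusted p = 0.409), so that a change of 1.5-fold or more lay outside both intervals. HDAC8 shares 1193 exon bases (5.21%) on the same strand with ENSG00000285547, which had at most 17.6 counts in a library.

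Of the class IIb genes, HDAC6 moved in opposite directions in the 2 lines. HDAC6 (ENSG00000094631, chromosome X, bases 48801377 to 48824982, plus strand) fell from 31.7 and 31.1 CPM to 26.5 and 24.5 CPM in 451Lu-R and rose from 15.0 and 17.1 CPM to 19.0 and 20.4 CPM in 1205Lu-R. The levels of the lines drew closer without crossing. The fall was 1.21-fold (log2 fold change -0.28, SE 0.081, edgeR adjusted p = 0.00368) and the rise 1.28-fold (0.35, SE 0.11, edgeR adjusted p = 0.00564), and the difference was 0.60 (SE 0.13, edgeR adjusted p = 0.000622). Each change within a line missed the threshold with DESeq2, with an adjusted p of 0.0736 in 451Lu-R (range over the alternatives 0.000266 to 0.0736) and 0.120 in 1205Lu-R (range 0.00118 to 0.120). Without DMSO replicate 1 of 1205Lu-R the rise there was 0.25 (edgeR adjusted p = 0.0739), whereas the difference between lines stayed past the threshold under every alternative run (adjusted p of 1.89e-05 to 0.00951).

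HDAC10 fell in 451Lu-R. HDAC10 (ENSG00000100429, chromosome 22, bases 50245183 to 50251405, minus strand) stood at 26.0 and 25.6 CPM with DMSO and 17.8 and 17.7 CPM with corin in 451Lu-R, a 1.43-fold fall (log2 fold change -0.52, SE 0.090, edgeR adjusted p = 2.95e-05). In 1205Lu-R it stood at 4.05 and 4.52 CPM with DMSO and 3.52 and 3.10 CPM with corin (-0.33, 95% interval -0.82 to 0.17, edgeR adjusted p = 0.217). The groups did not overlap there, but the change did not pass the test. The difference between the responses was 0.15 (95% interval -0.31 to 0.62, edgeR adjusted p = 0.652), and it was not shown that the lines differ. The values of HDAC10 are uncertain because 2763 of its exon bases (55.8%) are shared on the same strand with MAPK12, a p38 kinase gene. MAPK12 fell too, by 0.52 in 451Lu-R cells and by 0.93 in 1205Lu-R cells on the log2 scale.

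HDAC11, of class IV, did not pass the test in either line. HDAC11 (ENSG00000163517, chromosome 3, bases 13479724 to 13506424, plus strand) stood at 13.4 and 9.54 CPM with DMSO and 13.3 and 14.3 CPM with corin in 451Lu-R, and at 10.8 and 11.3 CPM with DMSO and 10.9 and 14.7 CPM with corin in 1205Lu-R. The groups overlapped in both lines. The log2 fold change was 0.27 in each line, with 95% intervals of -0.03 to 0.57 in 451Lu-R (edgeR adjusted p = 0.0934) and -0.03 to 0.57 in 1205Lu-R (edgeR adjusted p = 0.088). Single libraries changed these calls, and in 1205Lu-R scaling by library size alone did so too. Without DMSO replicate 1 of 451Lu-R the change there was 0.53 (edgeR adjusted p = 0.0022, range over the alternatives 0.0022 to 0.766), and without corin replicate 1 of 1205Lu-R the change there was 0.46 (edgeR adjusted p = 0.00424, range 0.00424 to 0.919).

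The test of the difference between lines thus called HDAC5 and HDAC6 as more positive in 1205Lu-R and HDAC4 as less positive, 3 of 9 members, in a comparison in which 49.7% of 16062 genes passed. HDAC3, HDAC7, HDAC8, HDAC9, HDAC10 and HDAC11 did not pass. The genes whose profile over the 8 libraries lay nearest to that of HDAC5, by Euclidean distance of mean-centred log2 CPM, were B4GALNT3 (0.40), LRRC8B (0.49) and ANGPTL6 (0.52). B4GALNT3, a glycosyltransferase gene, had group means of 18.8 and 43.8 CPM in 451Lu-R with DMSO and corin and of 4.62 and 38.0 CPM in 1205Lu-R. Nearest to HDAC6 were CCDC85C (0.20), GSN (0.21), which encodes the actin-severing protein gelsolin, and EIF4G3 (0.24). GSN had group means of 359 and 301 CPM in 451Lu-R and of 181 and 228 CPM in 1205Lu-R.

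The members also differed between the lines with no corin given. With DMSO, HDAC3, HDAC4, HDAC7 and HDAC9 stood higher in 1205Lu-R than in 451Lu-R, HDAC5, HDAC6 and HDAC10 stood lower, and HDAC8 and HDAC11 did not pass, so that 7 of 9 members were called where 82.5% of 14104 genes were. HDAC10 differed by the widest margin, 6.0-fold lower (log2 fold change -2.58, SE 0.14, edgeR adjusted p = 5.93e-15), and HDAC5 was 3.95-fold lower (-1.98, SE 0.13, edgeR adjusted p = 2.92e-13). The genes that share exon bases with them were lower too, MAPK12 (with HDAC10) at -1.04 and G6PC3 (with HDAC5) at -0.92. The part of shared reads in these differences was not tested. HDAC7 was 2.76-fold higher (1.47, SE 0.12, edgeR adjusted p = 4.86e-11), and HDAC6 was 1.96-fold lower (-0.97, SE 0.096, edgeR adjusted p = 1.37e-09). The differences of HDAC3 and HDAC4 were smaller, at 0.47 and 0.51 on the log2 scale. HDAC9 was 2.12-fold higher (1.08, SE 0.39, edgeR adjusted p = 0.0148), but the call was lost with DESeq2 (adjusted p = 0.153, range over the alternatives 0.00666 to 0.289), without DMSO replicate 1 of 451Lu-R (log2 fold change 0.70) and without DMSO replicate 2 of 1205Lu-R (0.65). It passed the filter in this comparison through the 1205Lu-R libraries.

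With corin in both lines, fewer of these differences reached the same size. HDAC3, HDAC7 and HDAC9 stood higher in 1205Lu-R, HDAC5, HDAC6 and HDAC10 stood lower, and HDAC4, HDAC8 and HDAC11 did not pass, which is 6 of 9 members where 79.2% of 15363 genes were called. HDAC10 was still 5.33-fold lower (log2 fold change -2.41, SE 0.16, edgeR adjusted p = 1.05e-10), whereas HDAC5 was 1.36-fold lower (-0.45, SE 0.063, edgeR adjusted p = 3.67e-06). The overlapping genes MAPK12 and G6PC3 were again lower, at -1.47 and -0.78. HDAC6 was 1.28-fold lower (-0.36, SE 0.087) and HDAC4 differed by 0.08 (95% interval -0.07 to 0.23, edgeR adjusted p = 0.308). HDAC3 was 1.49-fold higher and HDAC9 1.73-fold higher (0.79, SE 0.15, edgeR adjusted p = 8.77e-05). HDAC7 was 1.79-fold higher (0.84, SE 0.27, edgeR adjusted p = 0.00848), a call that was lost with DESeq2 (adjusted p = 0.07, range over the alternatives 0.000462 to 0.172) and without corin replicate 1 of 1205Lu-R (log2 fold change 0.51). The test that bears on whether the gap between lines changed with corin is the difference of responses given above.

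**Figure D4:**
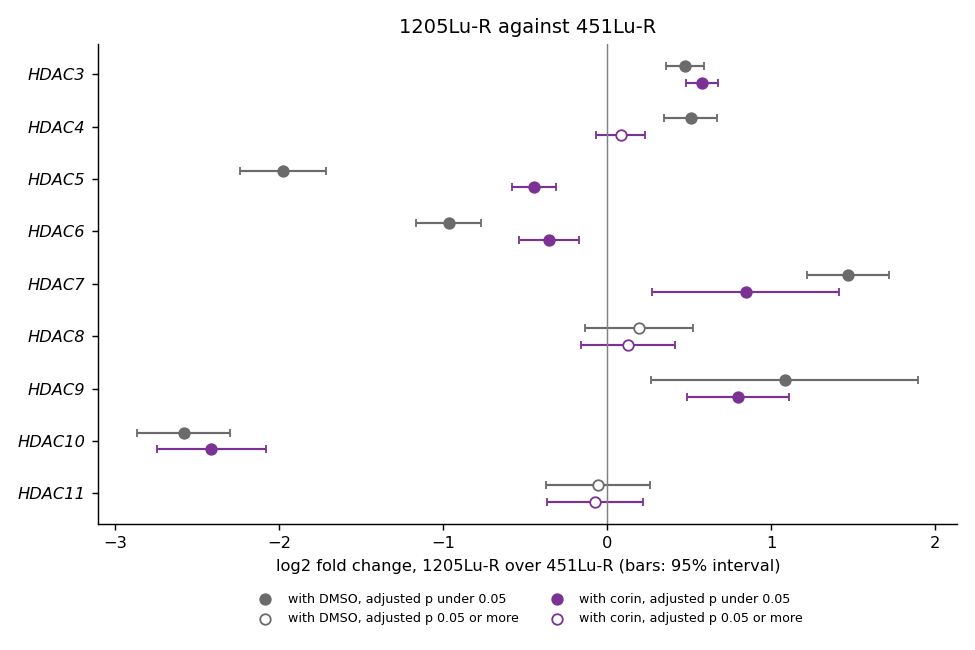
Log2 fold change of each gene in 1205Lu-R over 451Lu-R (x axis) with DMSO (grey) and with corin (purple), with the 95% interval as a bar. Filled points had an adjusted p under 0.05. HDAC5 lies at -1.98 with DMSO and -0.45 with corin, and HDAC10 stays below -2 in both.

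Levels between genes were compared per kilobase of exon (CPM divided by the length of all exons joined). HDAC3 led in all 4 groups and held 41.2% of the summed level of the 9 genes in the DMSO group of 451Lu-R and 46.4% in its corin group, and 59.7% and 63.1% in those of 1205Lu-R. In 451Lu-R with DMSO the order after HDAC3 was HDAC10, HDAC5, HDAC11, HDAC6, HDAC4, HDAC7, HDAC8 and HDAC9, and the ranges of HDAC11 and HDAC6 overlapped. In 451Lu-R with corin the order was HDAC3, HDAC5, HDAC10, HDAC11, HDAC4, HDAC6, HDAC8, HDAC9 and HDAC7, with an overlap of HDAC8 and HDAC9. The order in 1205Lu-R with DMSO was HDAC3, HDAC4, HDAC7, HDAC11, HDAC6, HDAC10, HDAC5, HDAC8 and HDAC9, with an overlap of HDAC10 and HDAC5. With corin it was HDAC3, HDAC5, HDAC4, HDAC11, HDAC6, HDAC9, HDAC10, HDAC7 and HDAC8, where HDAC4 and HDAC11 overlapped, as did each neighbouring pair from HDAC9 to HDAC8. HDAC5 thus went from the seventh place to the second in 1205Lu-R and from the third to the second in 451Lu-R. By longest or canonical transcript HDAC5 was the eighth in 1205Lu-R with DMSO and the fourth or the fifth in 451Lu-R with DMSO, and the second in both corin groups. The place of HDAC8 also depended on the length used, since its exons join to 22888 bases over 60 transcripts: by canonical transcript it was the fourth of 9 in 451Lu-R with DMSO and the second in 1205Lu-R with DMSO.

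Across the groups, the order of each gene differed. HDAC3 was highest in 1205Lu-R with corin, HDAC4 and HDAC7 in 1205Lu-R with DMSO, HDAC5 in 451Lu-R with corin, HDAC6 and HDAC10 in 451Lu-R with DMSO, and HDAC9 in 1205Lu-R with corin. In each of these the highest group did not overlap the next. For HDAC4 this depended on the scaling. By library size alone, HDAC4 in 1205Lu-R stood at 36.9 and 37.9 CPM with DMSO and at 39.3 and 37.2 CPM with corin. Neighbouring groups overlapped throughout for HDAC8 and HDAC11, and for HDAC4 the overlapping neighbours were the corin groups of the 2 lines. These spanned 35.6 to 37.7 CPM in 1205Lu-R and 33.9 to 36.0 CPM in 451Lu-R.

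Genes that work with the deacetylases, and the sirtuins as a separate family of deacetylases, were counted from 7 lists. For a gene that passed the filter on low counts only through 1 group, the filter favoured the direction of a difference. The counts and medians therefore cover genes at the cutoff in both libraries of both groups. Among all genes counted this way, the share higher with corin was 36.6% (451Lu-R) and 35.1% (1205Lu-R), and the share lower was 42.9% in each line. The MEF2 genes, which encode the factors that class IIa deacetylases bind, rose in 3 of 3 cases in 451Lu-R (median log2 fold change 0.99) and in 3 of 3 in 1205Lu-R (0.66). MEF2C stood at 10.2 and 11.4 CPM with DMSO and 37.0 and 38.3 CPM with corin in 451Lu-R and at 3.30 and 1.96 CPM with DMSO and 20.8 and 19.3 CPM with corin in 1205Lu-R, a rise of 1.82 and 2.96 on the log2 scale. MEF2A rose by 0.89 and 0.66. MEF2D rose by 0.99 in 451Lu-R cells and by 0.16 in 1205Lu-R cells (edgeR adjusted p = 0.0467). MEF2B in 451Lu-R had 1.80 and 1.46 counts in the DMSO libraries against 14.8 and 35.7 in the corin libraries. The mean of the corin libraries was 8.79-fold over a floor of 3 counts per library (4.61-fold for corin replicate 1 and 13.0-fold for corin replicate 2). It passed the filter only through the corin libraries, is not in the count, and was not tested in 1205Lu-R.

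The cohesin list moved the other way. Of its 13 genes, 11 fell and none rose in each line, with a median log2 fold change of -0.67 (451Lu-R) and -0.61 (1205Lu-R). STAG2, a subunit of the cohesin ring, went from 91.0 and 85.3 CPM to 26.6 and 28.8 CPM in 451Lu-R (log2 fold change -1.66) and from 106 and 109 CPM to 34.4 and 35.7 CPM in 1205Lu-R (-1.56). Its paralog STAG1 fell by 0.99 and by 1.46, and CDCA5 (sororin, which protects cohesin in S phase) fell by 1.03 and by 1.08. The cohesin loader MAU2 fell in both lines (-1.15 and -0.61), as did PDS5A, a regulator bound to cohesin (-0.90 and -1.16). SMC3, the substrate of HDAC8, fell by 0.13 in 451Lu-R cells and by 0.45 in 1205Lu-R cells. The genes that did not pass were ESCO1 (an SMC3 acetyltransferase, -0.13 and 0.26) in both lines, WAPL (-0.02) in 451Lu-R and ESCO2 (-0.16) in 1205Lu-R. SMC3, ESCO1, WAPL and ESCO2 were chosen after their values were seen.

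Of the partners of HDAC3, NCOR1, the scaffold of the NCoR complex, fell in both lines, by 0.86 and by 1.06 on the log2 scale. TBL1X, which encodes another subunit of the complex, went from 10.5 and 9.44 CPM to 22.1 and 22.0 CPM in 451Lu-R (log2 fold change 1.16) and from 90.9 and 86.0 CPM to 55.1 and 54.5 CPM in 1205Lu-R (-0.64). It thus rose in 1 line and fell in the other, and the difference between lines was -1.84 (edgeR adjusted p = 1.35e-11).

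The kinases that drive class IIa proteins out of the nucleus gave 7 higher and 2 lower of 12 in 451Lu-R (median 0.25) and 4 higher and 5 lower of 12 in 1205Lu-R (-0.04). CAMK1D rose in both lines (2.81 and 1.28), as did CAMK2G (1.17 and 0.73). SIK2 rose by 1.01 in 451Lu-R and fell by 0.14 in 1205Lu-R (edgeR adjusted p = 0.0193), and the responses differed by -1.19 (edgeR adjusted p = 2.63e-10). SIK1, whose reads may be shared with a near-identical copy, had 4.61 and 4.46 counts with DMSO against 20.8 and 30.3 with corin in 451Lu-R, passed the filter only through the corin libraries and is not in the count. PRKD2 rose in both lines (0.93 and 0.69). CAMK2D fell by 0.65 in 1205Lu-R and missed the threshold in 451Lu-R (-0.14). The 14-3-3 genes gave 4 higher and 2 lower of 6 in 451Lu-R (median 0.09) and 1 higher and 5 lower of 6 in 1205Lu-R (-0.52). SFN (14-3-3 sigma), with 3 and 5 counts with DMSO against 17 and 14 with corin in 1205Lu-R, passed only through the corin libraries and is not in the count. It was not tested in 451Lu-R, and it was chosen after its values were seen. YWHAG rose in both lines (1.10 in 451Lu-R, 0.41 in 1205Lu-R). YWHAB fell by 0.48 and by 0.88, and YWHAE fell by 0.45 and by 0.55, in that order of lines. YWHAZ rose by 0.11 and fell by 0.64 in the same order. The YWHAZ responses differed by -0.78 (edgeR adjusted p = 6.23e-20).

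Among the partners of HDAC6, 2 of 8 rose and 5 fell in 451Lu-R (median -0.22), and 1 rose and 5 fell in 1205Lu-R (-0.18). The gene that rose in both was HSP90AA1, an HDAC6 substrate, by 1.31 and 1.02. SIRT2, the other tubulin deacetylase, fell by 0.64 and by 1.02. ATAT1, the tubulin acetyltransferase, went from 7.33 and 7.83 CPM to 3.24 and 3.79 CPM in 451Lu-R (log2 fold change -1.09), and DYNC1H1, the dynein heavy chain, rose by 0.79 there. VCP fell in both lines (-0.09 and -0.55), as did CTTN (cortactin, -0.37 and -0.39).

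The polyamine list tied to HDAC10 gave 8 higher and 2 lower of 10 in 451Lu-R (median 0.55) and 6 higher and 4 lower of 11 in 1205Lu-R (0.27). SAT1, which acetylates spermidine and spermine, went from 152 and 149 CPM to 613 and 605 CPM in 451Lu-R (log2 fold change 2.04) and from 32.1 and 34.1 CPM to 603 and 618 CPM in 1205Lu-R (4.26). The corin libraries of both lines thus reached a similar level from different DMSO levels. ODC1, the entry enzyme of the pathway, rose by 1.68 and 2.12, and spermidine synthase (SRM) fell by 1.73 and by 1.17. PAOX, a polyamine oxidase, had a log2 fold change of 1.70 in 451Lu-R but reached the cutoff in 1 of 2 DMSO libraries and is not in the count. OAZ2, an antizyme, rose in both lines (0.48 and 0.82). The sirtuins, the deacetylases that need NAD, gave 1 higher and 3 lower of 6 in 451Lu-R (median -0.28) and 2 higher and 1 lower of 6 in 1205Lu-R (-0.01). SIRT4 in 451Lu-R had 5 and 8 counts in the DMSO libraries against 35 and 29 in the corin libraries, and in 1205Lu-R 3 and 3 against 19 and 26. It passed the filter only through the corin libraries in both lines and is not in the counts. SIRT3 fell by 0.83 and SIRT5 fell by 0.63 in 451Lu-R, and neither passed the test in 1205Lu-R (-0.13 and 0.11). SIRT1 rose in both lines (0.32 and 0.52). SIRT7 rose by 0.45 in 1205Lu-R and missed the threshold in 451Lu-R (0.23, edgeR adjusted p = 0.0545).

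**Figure D5:**
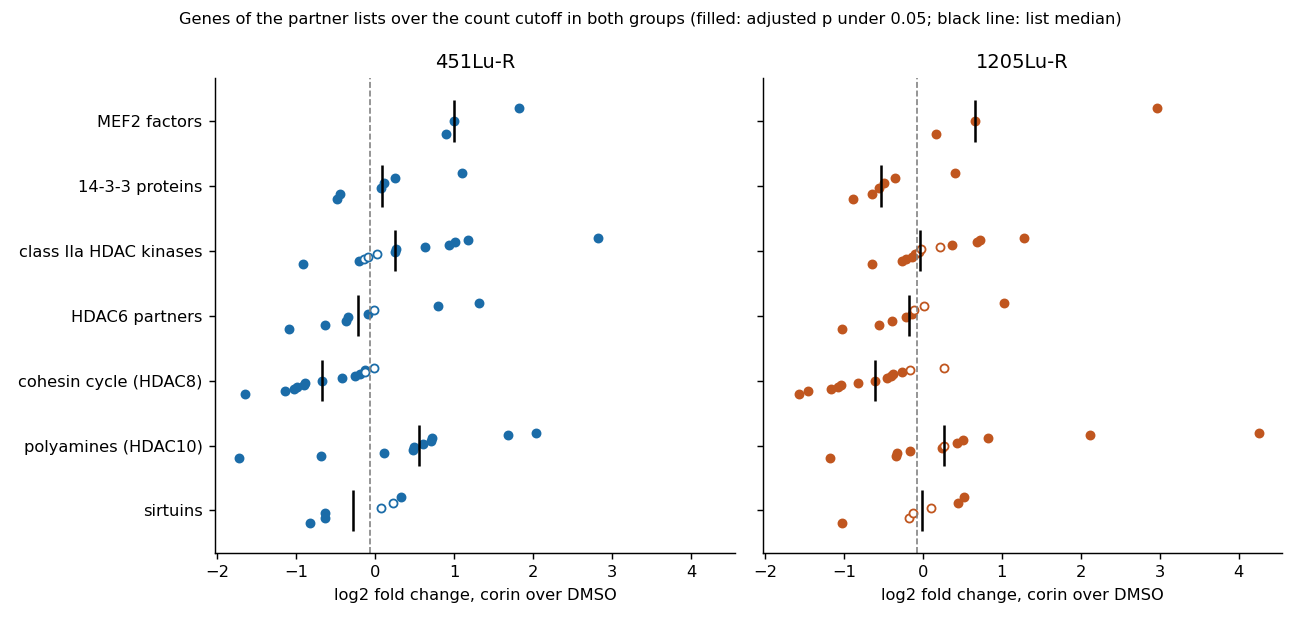
Log2 fold change with corin over DMSO (x axis) of genes in the 7 lists (partner genes and sirtuins) at the cutoff in both groups. 451Lu-R is on the left and 1205Lu-R on the right. Filled points had an adjusted p under 0.05, black lines mark list medians and the dashed line the median of all genes counted this way (-0.07 in each line). No gene of the cohesin list rose past the test in either line, and no MEF2 gene that is drawn fell. Genes that passed the filter through 1 group alone are neither drawn nor in the medians.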

How the data were processed

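The members and the gene lists were chosen with earlier results of these data known. Reads were trimmed with Trimmomatic and quantified with Salmon against the GENCODE 32 transcriptome by the authors, who deposited the result as estimated counts summed to genes, one column per library. Versions and the strand setting are not given in the sources used here, so antisense or overlapping genes may share reads. Symbols came from GENCODE 44 (34052 of 34228 genes matched), and coordinates are those of its hg38 annotation. Further tables hold log2 fold changes and adjusted p-values of the authors' own comparisons with PLX4032 and were not used. No column of another sample was used.

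Estimated counts were rounded and tested with edgeR 4.0.16 (filterByExpr, TMM, glmQLFit and glmQLFTest, 2-sided) in R 4.3.3, with Benjamini-Hochberg adjustment over all genes tested. Each comparison used only its own groups, and the difference of responses used all 8 libraries with an interaction term. The SE is the fold change divided by the root of F. The scripts were tested on simulated counts. CPM were computed with TMM factors (0.959 to 1.04) over the 8 libraries, and levels per kilobase with the joined exons. A change was called at an adjusted p under 0.05. Alternatives were other scalings and filters, DESeq2 1.42.0, a replicate block, a fit of all libraries, leaving out each library and other gene lengths; the canonical transcript and the count of genes at the filter's cutoff (10 reads at the median library size) in both groups were added after the data were seen. All 9 members were named, and of each list at most 4 genes per comparison: the called genes that changed most, where their mean reached 1 CPM. For HDAC5 and HDAC6, the members with the largest called difference between lines, the 3 nearest profiles were named. 1 item, and the counts of the list that holds it, are not reported here.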

Additional observations from a re-analysis of the deposited data

Results flagged for a closer look

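For 3 genes the response to corin differed between the lines by edgeR's test of the difference itself, which was passed by 49.7% of all genes. The HDAC5 response was larger in 1205Lu-R by 1.52 on the log2 scale, and HDAC5 rose in 4 of 4 corin libraries against the DMSO libraries of their line. The HDAC6 response was more positive in 1205Lu-R by 0.60, with a fall in 451Lu-R and a rise in 1205Lu-R. The HDAC4 response differed by -0.44, with a rise in 451Lu-R alone past the test.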

How the results depend on the processing

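Of the fold changes of the 9 members over the 5 comparisons, 294 values under alternatives that kept all libraries had the direction and call reported, 5 lost the call, 3 gained one and 4 changed sign. Of those that left out 1 library, 199 were alike, 4 lost and 3 gained a call and 10 changed sign. None of the sign changes concerned a called value. Scaling by library size alone moved the median of all genes by 0.21 in the difference of responses, -0.11 between lines with DMSO and under 0.1 elsewhere. With it HDAC4 in 1205Lu-R was 0.031, the differences of responses were 0.12 for HDAC8 and 0.18 for HDAC11, HDAC11 between lines with corin was 0.015, and 0 members were called lower in the difference of responses. The difference for HDAC3 was then 0.30 (edgeR adjusted p = 0.00114, range over the alternatives 0.00114 to 0.643), HDAC11 in 1205Lu-R 0.35 (0.0322) and HDAC4 between lines with corin 0.17 (0.0356). The number of members higher by 2-fold between lines with DMSO was 1 in place of 2 with that scaling and with DESeq2. Over all genes, 2759 of 14104 tested were called higher by 2-fold between lines with DMSO, and 2854 of 15363 with corin. Counting only members at the filter's cutoff in both groups, added after the data were seen, left out HDAC9 and gave 1 in place of 2 members higher by 2-fold in 451Lu-R and between lines with DMSO. Leaving out 1 library gave 1 to 2 members lower in the difference of responses (2 without corin replicate 1 of 1205Lu-R), 1 to 2 members higher by 2-fold between lines with DMSO (1 without DMSO replicate 1 of 451Lu-R or DMSO replicate 2 of 1205Lu-R) and 0 to 1 with corin (1, HDAC7, without corin replicate 2 of 1205Lu-R). Ranges that crossed 0 were those of HDAC8 in 1205Lu-R (-0.0078 to 0.23), the differences of responses of HDAC8 (-0.25 to 0.057), HDAC9 (-0.74 to 0.12) and HDAC11 (-0.32 to 0.18), and HDAC11 between lines with DMSO (-0.27 to 0.20) and with corin (-0.31 to 0.12). The HDAC3 share was 47.0%, 53.8%, 65.6% and 69.8% by longest transcript and 42.1%, 49.7%, 58.1% and 65.0% by canonical transcript, in the order of groups above. Same-numbered libraries were not paired by the labels, and their deviations correlated at 0.027 in 451Lu-R, -0.060 in 1205Lu-R, 0.165 between the DMSO groups of the lines and -0.046 between the corin groups. A fit with the replicate number as a block changed no call of a member and gave 4 higher and 3 lower in 451Lu-R, as before, with HDAC6 at -0.28. The cause of these differences was not tested. HDAC9 with DMSO rested on 9.07 to 29.9 counts per library, which limits its precision.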
